A study of Drosophila melanogaster with 4 samples.

Results

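Depletion of Med12 in the dorsal half-disc was set against the undepleted control here, gene by gene, in single cells of the larval wing disc of Drosophila melanogaster. The genes described are those listed in both the authors' deposited table for Med12 depletion and that for Control, which were 4574 of the 7451 genes listed in at least 1 table of the series. Of the 4574, 4473 were detected in at least 10% of cells of 1 cell set, and all counts below are over these. The Med12 depletion library carried ap-Gal4, UAS-GFP and a UAS RNA interference transgene against Med12 (labelled ap-Gal4>GFP/+; UAS-Med12i/+). The Control library carried the driver and GFP only (ap-Gal4>GFP/+). Both came from pools of 100 to 120 third-instar discs, and each genotype had 1 library, so no difference has a replicate check and none was tested. The series also holds a Cdk8-CycC depletion and a combined depletion, which were not used for any value below.

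Med12, encoded by kto in flies, is a subunit of the CDK8 kinase module, which docks reversibly on the Mediator complex that links transcription factors to RNA polymerase II. Med12 activates the kinase Cdk8 within the module, and in the fly wing disc kto and its partner skd (Med13) are known for roles in the output of Wingless signalling and in compartment boundaries. The wing disc is an epithelium with a dorsal and a ventral compartment. The dorsal one is specified by the selector gene ap, and ap-Gal4 therefore drives GFP and the interfering transgene there. GFP-positive (GFP+) cells are taken here to be dorsal and, under Med12 depletion, to express the interfering transgene. GFP-negative (GFP-) cells from those discs are taken to be ventral and undepleted. A dorsal cell with no GFP molecule found would count as GFP-negative.

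The readout of a gene in a library is the log2 fold between the mean expression of GFP+ and GFP- cells. The difference is the fold under Med12 depletion minus that in Control, so a positive difference means a larger dorsal excess, or a smaller dorsal deficit, in the depleted disc. A gene was called higher or lower at a difference of at least 1.3-fold, a log2 of 0.38. The base of the deposited log fold is not stated and was taken as the natural log. Read as base 2, every fold and difference would be smaller by the same factor, and 5 genes higher and 0 lower would meet that limit. The share of cells in which the gene was detected is the other readout, given for GFP+ and GFP- cells. The fold compares whole cell sets, so that fewer cells with the RNA and less RNA per cell cannot be told apart in it.

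The target was checked first. The authors' deposited tables gave kto (FBgn0001324) in 32.0% of GFP+ and 38.9% of GFP- cells under Med12 depletion, against 38.6% and 28.6% in Control. Under depletion kto was therefore found in fewer dorsal than ventral cells, the opposite of Control. Its ratio of shares had a log2 difference of -0.71, among the 10 lowest of all genes, and its log2 fold was -0.15 under Med12 depletion and -0.01 in Control, a difference of -0.14 that is short of the size rule. Cdk8, the kinase of the module, differed by -0.01, and CycC, its cyclin, by 0.10. The fourth subunit gene, skd, has no value in either table. Of 21 measured genes of the core Mediator, 15 lay above 0, or 71.4%, against 69.6% of all genes. None was called, with a range from -0.11 for MED22 to 0.08 for MED6 and a median of 0.016. The median of all 4473 genes was 0.019, so the list's median turns negative when the values are centred on it.

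The dorsal identity of the GFP+ cells was seen in both libraries. In the authors' deposited tables ap was detected in 66.2% of GFP+ and 7.1% of GFP- cells under Med12 depletion, and in 62.6% and 5.3% in Control. GFP itself was detected in 100% of GFP+ and 0% of GFP- cells of both libraries. A split of cells by GFP fixes these shares, so they say nothing of dorsal identity. The pouch gene nub was detected in 100% of all 4 sets, so only nub-expressing cells had been compared. The Hox gene Ubx, a marker of the peripodial membrane and of haltere discs, had a log2 fold of 4.58 under Med12 depletion and 4.62 in Control. Its excess in GFP+ cells was thus present without the interfering transgene, and its part in the results was not tested.

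The libraries differed in how many cells a gene was found in. The median share over genes was 51.9% of GFP+ and 38.2% of GFP- cells under Med12 depletion, and 33.6% and 23.3% in Control. The GFP- share was larger under Med12 depletion for 98.2% of genes and the GFP+ share for 98.3%. A higher share in the depleted library was therefore the rule, and genes were compared by their dorsal to ventral ratio within each library. The part of this gap between the libraries in the differences below was not tested. Within each library, 99.3% of genes under Med12 depletion and 99.4% in Control had the larger share in the GFP+ set.

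By fold, 12 genes were higher and 5 lower under Med12 depletion, which is 0.268% and 0.112% of the genes compared. With genes listed for 1 library only set to 0 in the other, 13 were higher and 17 lower, so the balance of the directions depends on how unlisted genes are treated. With a limit of 1.2-fold they were 36 and 9, or 0.805% and 0.201%. Just inside the 1.3-fold rule lay CG7173 (0.381) and vvl (-0.42), and just outside it CG2145 (0.378) and chrb (-0.36). Most genes lay close to 0, with 95% of them between -0.08 and 0.15, and 69.6% lay above 0 and 30.4% below it. Dorsal to ventral folds resembled each other between the libraries, where Pearson's r was 0.67 and Spearman's rho 0.43 across the 4469 genes other than GFP, w, Ubx and ap. These genes share the libraries and are not independent. Of all genes compared, 2096 were higher in GFP+ cells of both libraries and 666 lower in both, 1275 were higher under Med12 depletion and lower in Control, and 436 the reverse.

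**Figure D1:**
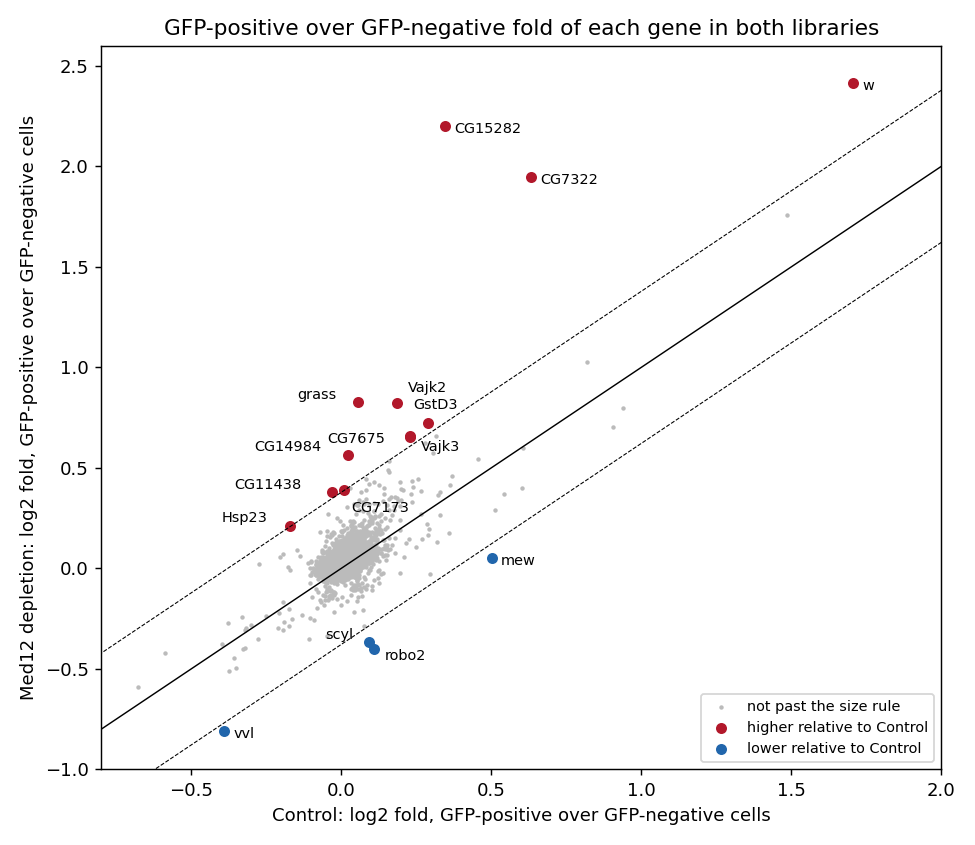
Log2 fold of GFP-positive over GFP-negative cells under Med12 depletion (vertical axis) and in Control (horizontal axis), 1 point a gene. The solid line marks equal folds and the dashed lines a difference of 1.3-fold. CG15282 and CG7322 lie farthest above the line and robo2 and scyl below it. GFP and Ubx, with folds over 4 in both libraries, lie outside the axes.

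The uppermost genes of the comparison were little-known ones. CG15282 had a log2 fold of 2.20 under Med12 depletion and 0.35 in Control, a difference of 1.86. In the authors' deposited tables it was detected in 85.7% of GFP+ and 53.2% of GFP- cells under Med12 depletion, against 37.6% and 21.7% in Control. The log2 ratio of shares differed by -0.11, but with so large a GFP- share that ratio has a low ceiling. By odds in place of shares the log2 ratio was 2.40 under Med12 depletion and 1.12 in Control, the opposite direction. CG7322 came next, with a log2 fold of 1.95 under Med12 depletion and 0.63 in Control, a difference of 1.32. It was detected in 80.1% of GFP+ and 21.0% of GFP- cells under depletion, against 44.8% and 8.6% in Control. Both genes were already higher in dorsal cells of Control, and more so in the depleted disc.

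The third, grass, encodes a serine protease that acts upstream of Toll in the response to microbes. It had a log2 fold of 0.83 under Med12 depletion and 0.06 in Control, a difference of 0.77. In the authors' deposited tables grass was detected in 57.8% of GFP+ and 9.2% of GFP- cells under depletion, against 11.6% and 2.8% in Control. Unlike CG15282, grass was called by detection share as well, with a log2 difference of 0.60. The other 5 measured genes of the serine protease and immunity list lay between -0.02 and 0.08, among them Tl, the Toll receptor, at 0.06 and Rel, an NF-kappaB factor, at -0.02.

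Of the 12 higher genes, 4 also passed the size rule by detection share, namely grass, CG7173, Vajk2 and Vajk3. Another 6 had a smaller ratio of shares under Med12 depletion than in Control, whereas by odds 10 of the 12 had a larger one, the exceptions being w and Hsp23. CG14984 had a log2 fold of 0.57 under Med12 depletion and 0.02 in Control, and CG7675 had 0.65 and 0.23. CG7173 had 0.39 and 0.01, and was detected in 69.6% of GFP+ and 36.8% of GFP- cells under depletion, against 22% and 16% in Control. For CG11438, a predicted lipid phosphate phosphatase gene, the folds were 0.38 under Med12 depletion and -0.03 in Control.

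The eye pigment transporter gene w was also called, with a log2 fold of 2.42 under Med12 depletion and 1.71 in Control. It marks many fly transgenes, and the depletion line carries a transgene that Control lacks, so that RNA from such a marker and from the gene at its own locus cannot be told apart. The shares of w were 79.5% and 17.7% under Med12 depletion and 81.6% and 13.9% in Control.

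**Figure D2:**
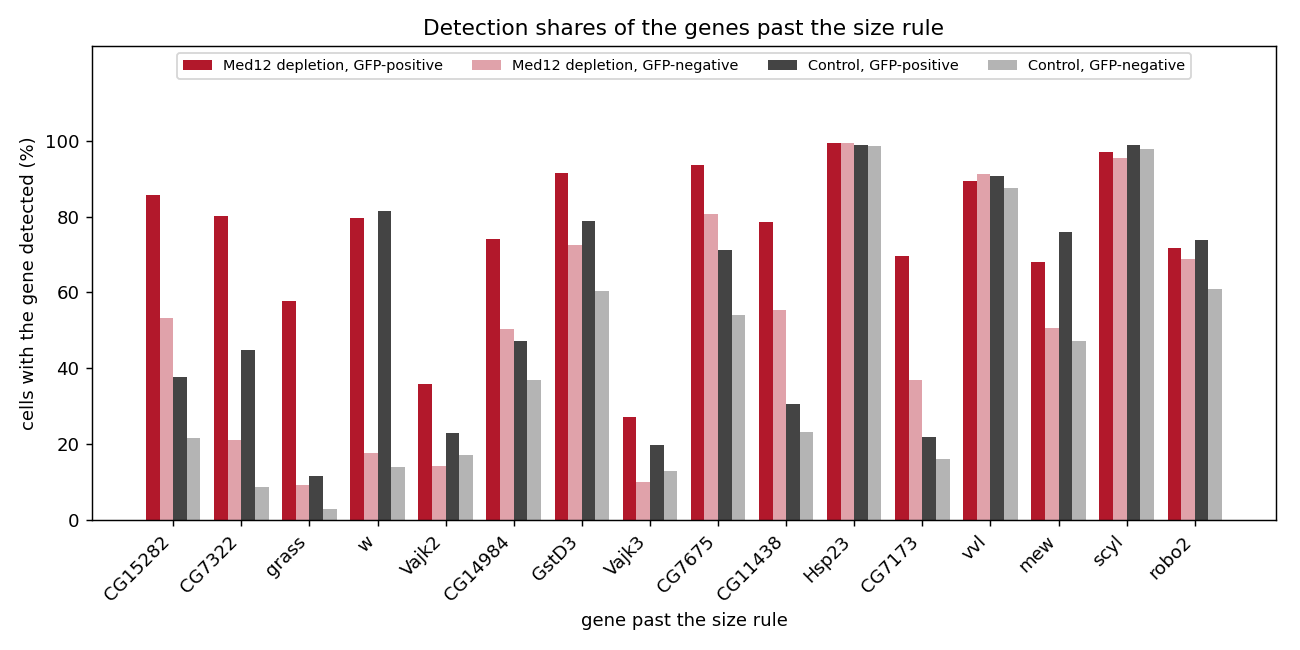
Share of cells in which each gene past the size rule was detected, in GFP-positive and GFP-negative cells of Med12 depletion and of Control (1 library each, no error), with GFP itself left out. For grass the GFP-positive share under depletion, 57.8%, stands far above the other 3 sets, whereas for Hsp23 all 4 shares exceed 98%.

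Vajk2 and Vajk3 encode related cuticle proteins and are direct neighbours in the reference annotation. Vajk2 had a log2 fold of 0.83 under Med12 depletion and 0.19 in Control, and Vajk3 had 0.66 and 0.23. The authors' deposited tables gave Vajk2 in 35.8% of GFP+ and 14.3% of GFP- cells under depletion, against 23.0% and 17.1% in Control. For Vajk3 the shares were 27.1% and 10.1% under depletion and 19.7% and 13.0% in Control. The ventral share of both genes was thus smaller in the depleted library, whereas 98.2% of all genes had the larger ventral share there. Reads of such similar genes may be split by the counting. Of 14 measured genes of the cuticle and chitin list, 9 lay above 0, or 64.3%, against 69.6% of all genes, and Vajk2 and Vajk3 were called. The chitinase gene Cht10 (0.18), the genes obst-A (0.15) and obst-E (0.12) for chitin-binding proteins, and rtv (0.13) followed without passing the rule, while verm, a chitin deacetylase gene, had -0.11. The chitin synthase gene kkv lay at -0.03. The cuticle protein gene Cpr49Ah, outside that list, reached 1.2-fold at 0.28. Cpr78E, another cuticle protein gene outside it, went the other way, with a log2 fold of -0.35 under Med12 depletion and -0.11 in Control.

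Neighbouring genes were compared as well. Of 32 adjacent protein-coding genes of the 16 called genes in the annotation, 8 were compared, and 2 of them were called, which are Vajk2 and Vajk3 as each other's neighbours. CG7322 (1.32) lies between shop (0.07) and Usp39 (0.00), and grass (0.77) next to Men-b (0.04). Hsp23 (0.38) lies next to Hsp27 (0.20), in a cluster of small heat shock genes. Vajk2 and Vajk3 overlap Ance-3 and w overlaps kirre (-0.12), each on the other strand, robo2 overlaps noncoding RNA genes, and mew overlaps CG32639 and CG15742, so that reads of these genes may be shared.

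Genes of the endoplasmic reticulum lay mostly on the higher side. Of 38 measured genes for folding and secretion there, 34 lay above 0, with a median of 0.10 against 0.02 over all genes. Of genes with a GFP+ share under Med12 depletion from 75% to below 90%, 75.7% lay above 0 with a median of 0.03, and from 90% to below 98% 66.9% did, with a median of 0.04. The list's count and median were above those of both bands, and this was not tested. None of its members passed the 1.3-fold rule, and 2 passed 1.2-fold. wbl, a gene of the protein disulphide isomerase family, had a log2 fold of 0.40 under Med12 depletion and 0.03 in Control. Hsc70-3, the luminal chaperone known as BiP in mammals, had 0.42 under Med12 depletion and 0.09 in Control.

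Several steps of the secretory route were represented. Among chaperones and isomerases, Calr (calreticulin) differed by 0.20, Pdi by 0.19, CaBP1 by 0.17, Gp93 by 0.10 and Cnx99A (calnexin) by 0.09. Among components of the translocation channel, Sec61beta differed by 0.19, Sec61alpha by 0.18 and Sec61gamma by 0.10, and SsRbeta of the translocon-associated complex by 0.23. The glycosylation subunits Ostgamma (0.18), Stt3B (0.14) and Ost48 (0.09) and the signal peptidase subunits Spase25 (0.14), Spase22-23 (0.13) and twr (0.13) lay in the same range. Coat proteins of vesicles differed less, at 0.11 for betaCOP, 0.09 for Sec23 and 0.02 for Sec31.

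Regulators of the unfolded protein response were divided. Xbp1, the transcription factor spliced by Ire1, differed by 0.16, and Atf6 by 0.03. The kinase gene PEK lay at -0.02 and CrebA, a driver of secretory genes, at -0.06. Outside the list, Spp, the signal peptide peptidase gene, reached 1.2-fold with 0.34, as did Fkbp14, a prolyl isomerase gene of the same compartment, with 0.26. By detection share the endoplasmic reticulum list had 32 of 38 members below 0 (median -0.08 against -0.09 over all genes). By odds in place of shares 35 of 38 lay above 0, with a median of 0.21 against 0.08 over all genes, so the direction by detection depends on the measure for these widely detected genes. That was not particular to this list. By odds 31 of 32 oxidative phosphorylation genes (median 0.35) and 25 of 29 proteasome genes (0.21) also lay above 0. Of 36 cytoplasmic ribosomal protein genes 19 did (0.00).

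**Figure D3:**
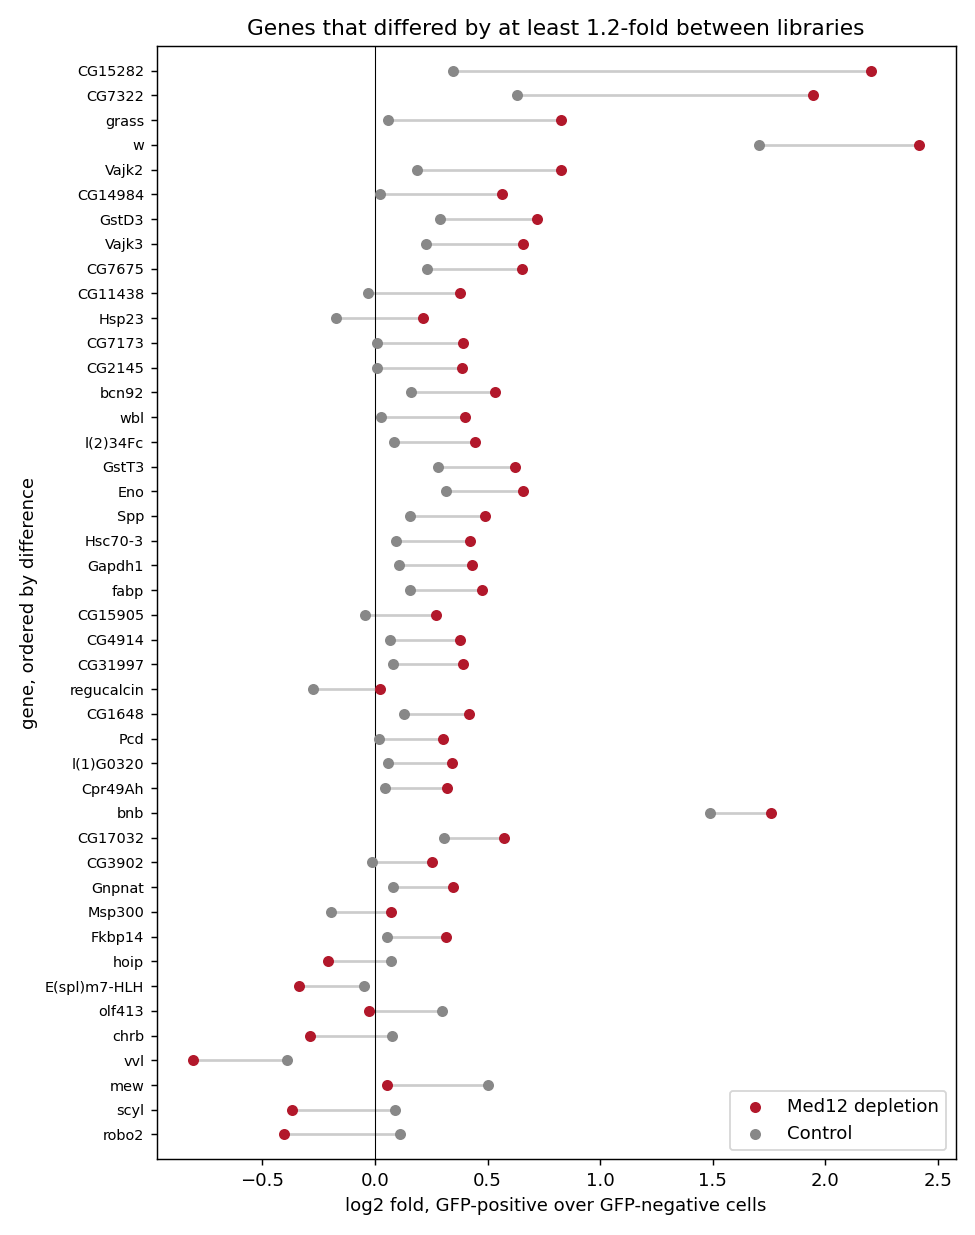
Log2 folds of GFP-positive over GFP-negative cells under Med12 depletion (red) and in Control (grey) for the genes that differed by at least 1.2-fold, GFP left out, ordered by the difference. Most higher genes start near or above 0 in Control, whereas robo2, scyl, chrb, olf413 and hoip lie above 0 in Control and below 0 under Med12 depletion.

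Eno (enolase) had a log2 fold of 0.66 under Med12 depletion and 0.32 in Control, and Gapdh1 had 0.43 and 0.11. Both reached 1.2-fold, and the other 6 measured glycolysis genes differed by 0.04 to 0.14. Ldh, lactate dehydrogenase, stood at the low end with 0.04, although it was detected in 38.2% of GFP+ and 24.5% of GFP- cells under Med12 depletion, against 7.0% and 3.7% in Control. All 13 measured genes of the tricarboxylic acid cycle lay above 0, with a median of 0.04, and the top ones were CG5028, for a subunit of isocitrate dehydrogenase, at 0.11 and ScsbetaA at 0.10. None of them was called. Of genes detected in 75% to below 90% of GFP+ cells 75.7% lay above 0, with a median of 0.03. Of 32 oxidative phosphorylation genes, 24 lay above 0, or 75%, near the 69.6% of all genes. Their median was 0.04, against 0.02 over all genes and 0.04 for genes detected in 90% to below 98% of GFP+ cells. COX7A (0.21) led.

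Genes of redox defence and the pentose phosphate route lay above 0 in 17 of 18 cases, or 94.4%, with a median of 0.06. Of genes detected in 75% to below 90% of GFP+ cells 75.7% did, with a median of 0.03, and the gap was not tested. The called gene GstD3, a glutathione S-transferase, had a log2 fold of 0.72 under Med12 depletion and 0.29 in Control, and belongs to a cluster of similar genes among which reads may be split. Outside the list, GstT3, of another class of these enzymes, had 0.62 under Med12 depletion and 0.28 in Control. Smaller differences were those of Taldo (0.11), the NADP-malic enzyme gene Men (0.10), Pgd (0.10), GstT1 (0.09) and GstD9 (0.08), while Rpi, at -0.03, was the single member below 0. Of 13 lipid synthesis genes all lay above 0 (median 0.06), among them FASN1, the fatty acid synthase gene, at 0.12, Pect at 0.07 and SREBP, which activates this pathway, at 0.07, but CG11438 (0.41) was the single member past the rule. For comparison, 69.4% of genes detected in 25% to below 50% of GFP+ cells lay above 0, with a median of 0.02. The fatty acid binding protein gene fabp, outside the lists, reached 1.2-fold at 0.32. FASN1 and Men had log2 share differences of 0.46 and 0.99, higher by detection as well. All 8 glycolysis genes had a negative one, but by odds 7 of the 8 lay above 0.

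Heat shock genes did not share a direction. The small heat shock gene Hsp23 had a log2 fold of 0.21 under Med12 depletion and -0.17 in Control, and Hsp27 had 0.06 and -0.14. Hsp68, of the inducible Hsp70 family, had -0.50 under Med12 depletion and -0.35 in Control, and Hsp83, the fly Hsp90, had -0.25 and -0.16. Of 7 measured members 2 lay above 0 and Hsp23 was called. Hsp68 was found in 48.1% of both cell sets under Med12 depletion, against 80.7% of GFP+ and 80.4% of GFP- cells in Control, so that both of its shares were smaller in the depleted library.

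On the lower side, robo2, a receptor for the guidance ligand Slit, had the largest difference. Its log2 fold was -0.40 under Med12 depletion and 0.11 in Control, a difference of -0.51. In the authors' deposited tables robo2 was detected in 71.8% of GFP+ and 68.8% of GFP- cells under depletion, against 73.9% and 61.0% in Control. The GFP+ share of robo2 was slightly smaller in the depleted library, unlike that of most genes. The paralogue robo1 differed by 0.08 and sli, the ligand gene, by -0.03. Of 9 measured guidance genes 5 lay below 0 and 4 above it, or 44.4%, against 69.6% of all genes. The median of that list, -0.03, turns positive when unlisted genes are set to 0.

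Both scyl and chrb encode inhibitors of the growth kinase TOR that are related to mammalian REDD1. scyl had a log2 fold of -0.37 under Med12 depletion and 0.09 in Control, and chrb had -0.29 and 0.08. Each was detected widely, scyl in 97.1% of GFP+ and 95.4% of GFP- cells under depletion against 98.9% and 97.7% in Control, and chrb in 87.6% and 82.0% against 90.7% and 82.0%. scyl passed the size rule and chrb the limit of 1.2-fold. The other 12 measured TOR and insulin genes differed by at most 0.10 in size, from Tor at -0.02 to Pdk1 at 0.10. The kinase gene, its activator Rheb (0.03) and the Tuberous sclerosis gene Tsc1 (0.06) lay within the range that holds 95% of genes.

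Among dorsal genes, mew, which encodes the alpha subunit of the dorsal position-specific integrin, was called lower. It had a log2 fold of 0.05 under Med12 depletion and 0.50 in Control. The authors' deposited tables gave mew in 68.0% of GFP+ and 50.6% of GFP- cells under depletion and in 75.9% and 47.1% in Control. The dorsal excess of mew was thus nearly absent from the mean in the depleted disc and smaller in the shares. Bx, encoding the LIM-only cofactor that limits Apterous activity, had 0.37 under Med12 depletion and 0.54 in Control, and ap itself had 0.80 and 0.94. The dorsal genes Ser, fng and Dr differed by at most 0.06 in size, with Ser, a Notch ligand, at 0.27 under Med12 depletion and 0.33 in Control, fng, the glycosyltransferase that modifies Notch, at 0.37 and 0.32, and Dr at 0.60 and 0.61. bnb went the other way, with 1.76 under Med12 depletion and 1.49 in Control. Of 9 measured dorsal genes 7 lay below 0 and 2 above it, or 22.2%, against 69.6% of all genes. The ventral integrin gene if, the counterpart of mew, had -0.42 under Med12 depletion and -0.59 in Control, and the other 6 measured adhesion genes differed by -0.06 to 0.07.

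GFP, made from the UAS-GFP transgene that the driver activates, had a log2 fold of 4.45 under Med12 depletion and 4.90 in Control. The difference was -0.45, and that of ap, whose regulatory region drives Gal4, was -0.14. The Med12 depletion disc has an additional UAS transgene, and a lower output of the driver cannot be told apart from the depletion.

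The POU factor gene vvl, which acts in vein formation, had a log2 fold of -0.81 under Med12 depletion and -0.39 in Control. It was detected in 89.5% of GFP+ and 91.1% of GFP- cells under depletion, against 90.6% and 87.5% in Control. This gene was already lower in dorsal cells of Control, and the deficit was larger under depletion. The 7 other measured vein and intervein genes ranged from mirr at -0.14 to ab at 0.10, with a median of -0.01. Of these 6 lay below 0 and 1 above it, or 14.3%, against 69.6% of all genes. Below vvl came olf413, with -0.03 under Med12 depletion and 0.30 in Control, E(spl)m7-HLH, a Notch target of the Enhancer of split complex, with -0.34 and -0.05, and hoip, a nucleolar protein gene, with -0.21 and 0.07. All 3 passed 1.2-fold but not 1.3-fold. CG8372, which had 0.29 under Med12 depletion and 0.51 in Control, fell short of both limits.

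E(spl)m7-HLH was detected in 39.9% of GFP+ and 43.5% of GFP- cells under Med12 depletion, and in 55% and 45% in Control. Here again, fewer dorsal than ventral cells scored positive in the depleted disc, and the share of dorsal cells was below that in Control. Other Notch genes listed in both libraries differed less, with Psn (0.09), pen-2 (0.08), aph-1 (0.06) and Nct (0.10), all of gamma-secretase, above 0 and the ligand gene Ser at -0.06. Several other Enhancer of split genes were listed for 1 library only and have no difference. E(spl)m3-HLH and E(spl)m2-BFM had log2 folds of -0.32 and -0.28 under Med12 depletion. In Control E(spl)m4-BFM had 0.24, E(spl)mgamma-HLH 0.11, E(spl)m8-HLH 0.06, E(spl)m5-HLH 0.03 and E(spl)malpha-BFM 0.01. Of 11 measured Notch genes, 6 lay below 0 and 5 above it, or 45.5%, against 69.6% of all genes. The median was -0.01, against 0.02 over all genes.

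Of 10 measured Wingless pathway genes 6 lay below 0 and 4 above it, or 40%, against 69.6% of all genes. The ligand genes wg and Wnt6 lay at -0.26 and -0.21, Wnt2 at -0.07 and the secreted feedback hydrolase gene Notum at -0.20. wg had a log2 fold of -0.22 under Med12 depletion and 0.04 in Control, but its shares were 27.9% of GFP+ and 18.1% of GFP- cells under depletion and 22.2% and 14.6% in Control, so by share it differed by 0.02. The receptor genes fz3 (0.00) and fz4 (0.03) and the destruction complex gene Apc2 (0.03) were near 0, and vg, the wing selector gene that responds to the pathway, lay at 0.21. The kinase gene nmo lay at -0.07 and por, for the enzyme that acylates Wnt proteins, at -0.02. None of the 10 was called. Another 8 Wingless members were listed for Med12 depletion only and 3 for Control only, and so have no difference. The Hippo list had 9 of 11 compared members above 0, or 81.8%, from fj (-0.07) to app (0.09). Another 5 of its members were listed for Med12 depletion only and 2 for Control only, and that range leaves them out. The Hedgehog list had 6 of 10, or 60%, with hh and ci both at 0.14 and en at -0.05. Of all genes 69.6% lay above 0, and of those detected in 50% to below 75% of GFP+ cells 73.7% did. EGFR and Dpp members ranged from -0.07 for brk to 0.12 for spi.

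Genes of ribosome production were on the lower side. Of 13 measured genes of ribosome biogenesis and growth 10 lay below 0 and 23.1% above it, against 69.6% of all genes. Their median was -0.09, and 1 of them, hoip, passed 1.2-fold. Others were mod (-0.22), Ssb-c31a (-0.18), known as a transcription coactivator gene, Nnp-1 (-0.15), Non1 (-0.15) and NHP2 (-0.14), whereas Myc, the growth regulator, had a log2 fold of -0.40 under Med12 depletion and -0.32 in Control and so differed by -0.08. Of 41 measured cytoplasmic ribosomal protein genes 40 lay below 0, from RpL26 at -0.21, and RpS19b, the variant detected in 39.4% of GFP+ and 23.4% of GFP- cells under depletion and in 8.5% and 5.1% in Control, was the single one above it, at 0.03. Nearly all of them were detected in almost every cell: 39 were found in at least 98% of GFP+ cells under Med12 depletion, and all 39 lay below 0. Of the other 53 genes detected as widely, 34 lay above 0, or 64.2%, with a median of 0.05. Of 62 mitochondrial ribosomal protein genes 50 lay above 0, or 80.6%, with a median of 0.03, near the 75.7% and 0.03 of genes detected in 75% to below 90% of GFP+ cells. Of 7 genes of translation initiation and elongation 4 lay below 0, with eEF5 (-0.17) and Tctp (-0.13) lowest, and 3 above it, with eIF3j (0.08) highest. Of 16 tRNA synthetase genes 14 lay above 0, or 87.5%, with a median of 0.03. Of genes detected in 50% to below 75% of GFP+ cells 73.7% did, with the same median of 0.03.

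Cell division genes stayed close to the rest. Of 42 measured genes of the G1-S transition and DNA replication 25 lay above 0, or 59.5%, with a range from -0.05 to 0.10. Of 27 mitotic genes 16 did, or 59.3%, from -0.04 to 0.10, against 69.6% of all genes. Both medians were 0.01 and turn negative when centred on all genes. The highest were dUTPase (0.10) and RnrL (0.09), for nucleotide supply, and mad2 (0.10), for the spindle checkpoint. PCNA, the replication clamp, lay at -0.04, and CycE, the cyclin of S phase entry, at 0.06. Of 15 measured JNK and cell death genes 12 lay above 0, or 80%, near the 73.7% of genes detected in 50% to below 75% of GFP+ cells. The farthest from 0 was hid, an inducer of apoptosis, with a log2 fold of 0.13 under Med12 depletion and 0.32 in Control. Its partner rpr differed by 0.00, and the JNK target puc by 0.03.

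**Figure D4:**
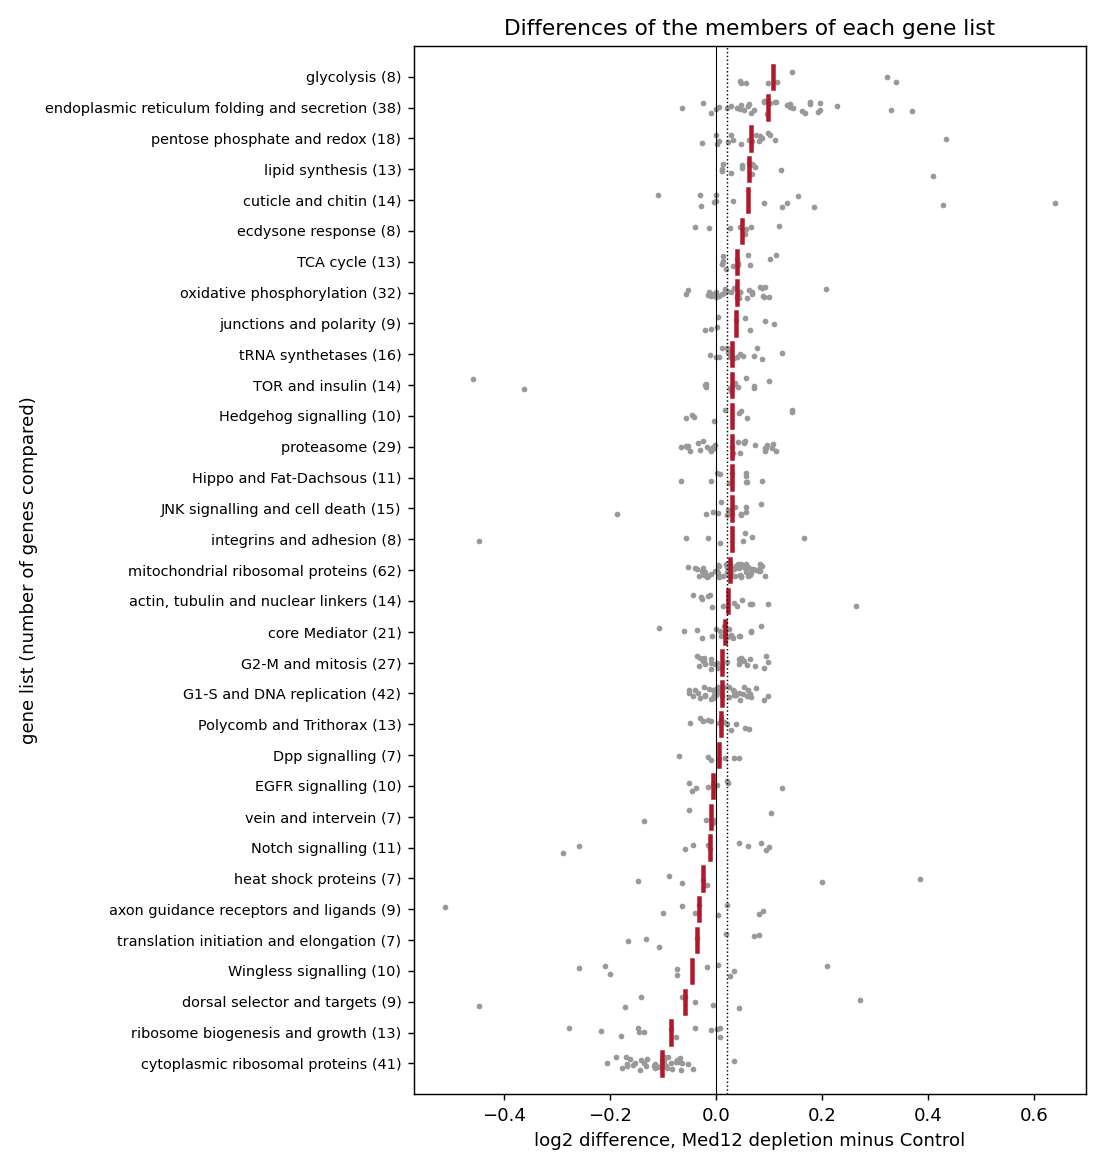
Log2 difference between Med12 depletion and Control for each measured member (grey points) and its median (red bar) in the lists with at least 7 genes compared. The dotted line is the median of all genes, 0.02. Medians run from -0.10 for cytoplasmic ribosomal proteins to 0.11 for glycolysis.

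Judged by detection share, 46 genes were higher and 87 lower, which is 1.03% and 1.95% of the 4472 genes with a defined ratio. Centred on the median of all genes the split was 76 and 42, and by odds in place of shares it was 365 and 92. The uppermost were Oseg5, of intraflagellar transport, found in 15.8% of GFP+ and 0.6% of GFP- cells under Med12 depletion against 7.8% and 0.9% in Control, and CG43245, found in 23.6% and 5.1% against 5.1% and 3.1%. Esyt2, Men, CG11843, moody, Vajk2, Vajk3, CG10208 and CG30196 followed, with log2 differences from 1.3 down to 0.80. Of these 10, Vajk2 and Vajk3 were also called by fold, while Oseg5 differed by 0.00 and moody by 0.04.

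The lowest by share was eyg, a notum selector gene, found in 12.3% of GFP+ and 8.9% of GFP- cells under Med12 depletion against 13.6% and 4.3% in Control. CG5758, CG3097 and comm, whose product sorts Robo receptors, followed, with log2 differences from -1.17 to -1.07. comm was found in 23.3% of GFP+ and 26.2% of GFP- cells under depletion, against 16.8% and 9.0% in Control. Culd, olf186-M, CG1139, Fatp2, kto and Abd-B completed the lowest 10, and the targeted gene was thus among them. The other measured notum genes, mirr and ush, also lay below 0 by fold, at -0.14 and -0.07, and so did the 4 measured genes of the hinge list, which are tsh (-0.08) and Sox15 (-0.06), nub (-0.09), which is also on the pouch list, and Dr (-0.01), which is also on the dorsal list.

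A further 994 genes were listed for Med12 depletion and not for Control, and so have no difference. By fold within the depleted disc alone, 10 of them were lower in GFP+ cells by at least 1.3-fold (1.01%) and 1 was higher (0.101%). In the authors' deposited table the lowest were CG17278 (log2 -0.71), hth (-0.58), a homeodomain factor gene of the proximal disc, Spn43Aa (-0.54), Lsd-2 (-0.48), a lipid droplet perilipin gene, and drl (-0.47), a Wnt5 receptor gene. The rest were corto, Toll-7, cv-c, klu and CG14301, from -0.43 to -0.38, and the higher gene was CG17919 (0.41). Of 950 genes listed for Control only, 2 were higher by that rule (0.211%), Ance at 0.69 and mamo at 0.41, and 0 were lower (0%).

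Markers of hemocytes and myoblasts were sparse, whereas most markers on the peripodial, sensory organ and tracheal lists had values. Of 10 hemocyte genes 1 was listed, Ppn, and for Med12 depletion only, at 63.0% of GFP+ and 63.8% of GFP- cells. Of 7 myoblast genes ct was listed for both and Ama for Control only, and the defining gene twi had no value in either. The summed share of the peripodial list, with 4 of 5 genes listed, was 156.5% in GFP+ and 76.0% in GFP- cells under Med12 depletion, and 142.5% and 70.2% in Control. Of these sums Ubx alone gave 89.4 and 35.1 points under Med12 depletion and 96 and 39.7 in Control. Mmp1 gave 48.4 and 29.1 under Med12 depletion and 33.6 and 22.6 in Control, and odd and drm at most 10.7 each. Of 9 sensory organ and neural genes 5 were listed for both, and of the 4 compared 1 lay above 0 and 3 below it. The proneural gene sc had a log2 fold of -0.06 under Med12 depletion and 0.11 in Control. The neural gene elav went the other way, with 0.07 under Med12 depletion and -0.06 in Control. The differences of ac (-0.03) and neur (-0.02) were small. In the tracheal list Gasp, serp and verm, which are also cuticle genes, had values in both libraries, and trh, which defines tracheal cells, was listed for Med12 depletion only. The summed shares were 149.5% in GFP+ and 103.1% in GFP- cells under Med12 depletion and 116.6% and 80.3% in Control for the sensory organ list, with 6 genes listed in each library. For the tracheal list they were 293.8% and 275% under Med12 depletion, from 5 genes, and 145.6% and 125.5% in Control, from 3. For the myoblast list they were 18.2% and 12.2% under Med12 depletion, from 1 gene, and 65.8% and 45.7% in Control, from 2, so that these sums follow which genes were listed. The part of these cells in the results was not tested.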

How the data were processed

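Wing disc cells were profiled by droplet-based 10x Genomics sequencing. The submitters' processing notes name Cell Ranger 3.0.2 and Seurat as the tools. Not given in the sources used here are the genome build, the cell filters, the treatment of doublets, and how many cells and molecules were counted. Depth is therefore unknown, and neither coordinates nor intervals are printed. Each deposited table compares GFP-positive with GFP-negative cells of 1 library. The deposited fold was read as a natural log, since its column name is that of early Seurat releases, with a pseudocount of 1 that understates low genes, and was divided to give log2. Its sign came from the column that names the higher set. The deposited detection fraction is printed as percent. The deposited p-value treats cells as replicates and was not used. It lies below 0.01 for every listed gene, so unlisted genes have no value and the genes compared are a selected subset. p-values were not computed, with 1 library per genotype.

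The size rule was 1.3-fold, for genes found in 10% or more of the cells of 1 set. Members, lists and rules were chosen with earlier results of these data known. The text names the module genes, ap, nub and GFP, called genes, the 12 at each end by fold, the 10 at each end by share and up to 5 leading members of each list. Others that are named (for example the full secretory and notum sets, the genes between 1.2-fold and 1.3-fold and those listed once) were chosen after their values were seen. Symbols came from the deposited tables, and 4559 of 4574 identifiers were in the reference name table. Neighbours are from Ensembl's BDGP6 annotation, used for gene order only. Alternatives in thresholds, log base, centring, share measure, control subtraction, unlisted genes and sign were tried. Odds by list and the widely detected genes without ribosomal proteins were added after the values were seen. Scripts were tested on simulated data and used Python 3.11.15, pandas 2.3.3 and numpy 2.4.6.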

Additional observations from a re-analysis of the deposited data

How the results depend on the processing

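No paired analysis was possible because each genotype had 1 library. With 1.2-fold in place of 1.3-fold, 36 genes were higher and 9 lower by fold. With 1.5-fold, or with the deposited fold read as a base-2 log, 5 were higher and 0 lower, and the 12 genes that then missed the rule kept their direction. No tool gives a test here, so these are counts by size. With unlisted genes set to 0, 13 were higher and 17 lower. Without subtraction of Control, 44 were higher and 9 lower by fold, 2600 and 6 by share. There GFP (4.45) and mew (0.0534) were positive by fold, and by share Abd-B (0.92), CG1139 (3.67), CG3097 (2.70), Culd (0.66), Fatp2 (1.71) and eyg (0.47). By share, 20 were higher and 14 lower at a ratio of at least 1.5, 21 and 48 with detection in at least 25%, 76 and 42 when centred, and 365 and 92 by odds ratio. Centring by fold gave 10 higher, without Hsp23 and CG7173, and 6 lower. A detection minimum of 5%, the deposited sign and leaving out GFP, w, Ubx and ap kept every count within 1.5 times. Median differences changed sign in 5 of 43 lists with centring, 8 without Control and 2 with unlisted genes at 0. The cause of these changes was not tested. Unknown depth limits the shares of genes found in few or nearly all cells.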
